A study of Mus musculus with 6 samples.

Results

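The subject is 34 mouse genes for carriers that move amino acids and amines across membranes. They were taken by symbol from the Slc1, Slc3, Slc6, Slc7, Slc36, Slc38 and Slc43 families, out of 56941 genes in a table of raw counts, and all 34 were found. The libraries came from lung cells selected with magnetic beads for CD31, an adhesion molecule of endothelial cells, on postnatal day 7. Pups had lived since postnatal day 0 in hyperoxia (75% oxygen, 3 libraries) or in room air (21% oxygen, 3 libraries). The labels give no strain, sex or number of animals per library, and they do not say whether replicates were separate animals, so a p-value here describes the spread among these libraries, part of which may be technical. Bead selection enriches CD31-positive cells and does not remove all others.

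Cells cannot make every amino acid and import the rest through carriers that differ in substrate and driving force. Exchangers swap one amino acid for another, sodium-coupled carriers concentrate their substrate, and carriers in the lysosome membrane release amino acids from digested protein. The transcription factors ATF4, active when amino acids run short, and NRF2, active under oxidative stress, induce several of these genes. Lung endothelium is known for clearing the amines serotonin and noradrenaline from the blood.

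Libraries held 39379793 to 42343192 counts in all. Levels are given in CPM, a gene's count as a share of its library's total adjusted by TMM, so that libraries of unequal depth can be compared. Genes were compared by edgeR's quasi-likelihood test over all 17072 genes that passed a filter on low counts. A gene was called where the p-value adjusted by the method of Benjamini and Hochberg was below 0.05. Endothelial markers were present: Pecam1, the gene for CD31, held 2649, 1932 and 2441 CPM in hyperoxia 1 to 3, against 3109, 2969.6 and 2269 CPM in room air 1 to 3. Markers of other cells were detected too, in some lists at a high level. The 12 pan-endothelial markers summed to 12282 to 16508 CPM in hyperoxia and 14335 to 19663 CPM in room air, and the 10 alveolar type 2 epithelium markers to 14772 to 17767 CPM in hyperoxia and 13316 to 20945 CPM in room air. Of 9 alveolar type 1 epithelium markers, 9 rose, by a median log2 fold change of 1.24, and none of the 9 was at 0. Their sum was 5853, 7746 and 6016 CPM in hyperoxia 1 to 3, against 2379.7, 2724 and 3376 CPM in room air 1 to 3, with hyperoxia 2 the highest hyperoxia library and room air 3 the highest room air library. Reads of 4 Y-linked genes summed to 0.0485 and 0 CPM in hyperoxia 1 and 3, to 155 CPM in hyperoxia 2 and to 131.5, 162 and 152 CPM in room air 1 to 3, so hyperoxia 2 held RNA of at least 1 animal that was not in hyperoxia 1 or 3. In the other marker lists, the called genes were 3 of 8 general capillary markers lower, 2 of 8 aerocyte markers higher and 1 lower, 1 of 7 tested airway markers higher, 1 of 5 mesothelial markers higher, 2 of 10 macrophage markers higher and 1 lower, and 2 of 6 tested erythroid markers lower. Over all genes tested, 6.77% rose and 4.41% fell. Other marker sums also stood apart between the groups. The aerocyte sum was 4078 to 4548 CPM in hyperoxia and 3195 to 3683 CPM in room air. The mesothelial sum was 124 to 175 CPM in hyperoxia and 49.7 to 67.6 CPM in room air, though only 2 of its 5 markers changed upward. The erythroid sum was lower, at 11.0 to 27.5 CPM in hyperoxia and 32.7 to 52.2 CPM in room air. Members were not set against these sums. In bulk samples, fewer cells of a type and less RNA per cell cannot be told apart.

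Of the 34 genes, 33 passed the filter on low counts. Among those, 8 rose in hyperoxia, 3 fell and 22 did not pass the test. The called share was 33.3%, against 11.2% of all genes tested. The members were chosen with earlier results of these data known, so these shares describe the set and test nothing about it. Of 28 other carriers of amino acids and amines, 8 passed the filter and none was called. Those 28 together summed to only 14.2 to 24.1 CPM in hyperoxia and 12.2 to 20.2 CPM in room air. At such low levels a change is hard to call, so they are no contrast to the members. In one direction, 24.2% of the 33 tested members rose, against 6.77% of all genes, and 9.09% fell, against 4.41%. The median log2 fold change of the 33 was 0.16, against -0.01 over all genes tested. Hyperoxia and room air libraries did not overlap at 19 of the 33 (57.6%), against 30.9% of all genes tested. The 19 include Slc7a10, which passed the filter through the room air libraries alone. The largest rises were those of the cystine exchanger gene Slc7a11, the broad amino acid carrier gene Slc6a14 and the glutamine exchanger gene Slc1a5, and the largest called fall was that of the taurine carrier gene Slc6a6. Without room air 1 the number that rose was 5, and without hyperoxia 3 the number that fell was 1. Below, 16 alternatives are other scalings, filters and tests, covariates, and libraries left out.

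**Figure D1:**
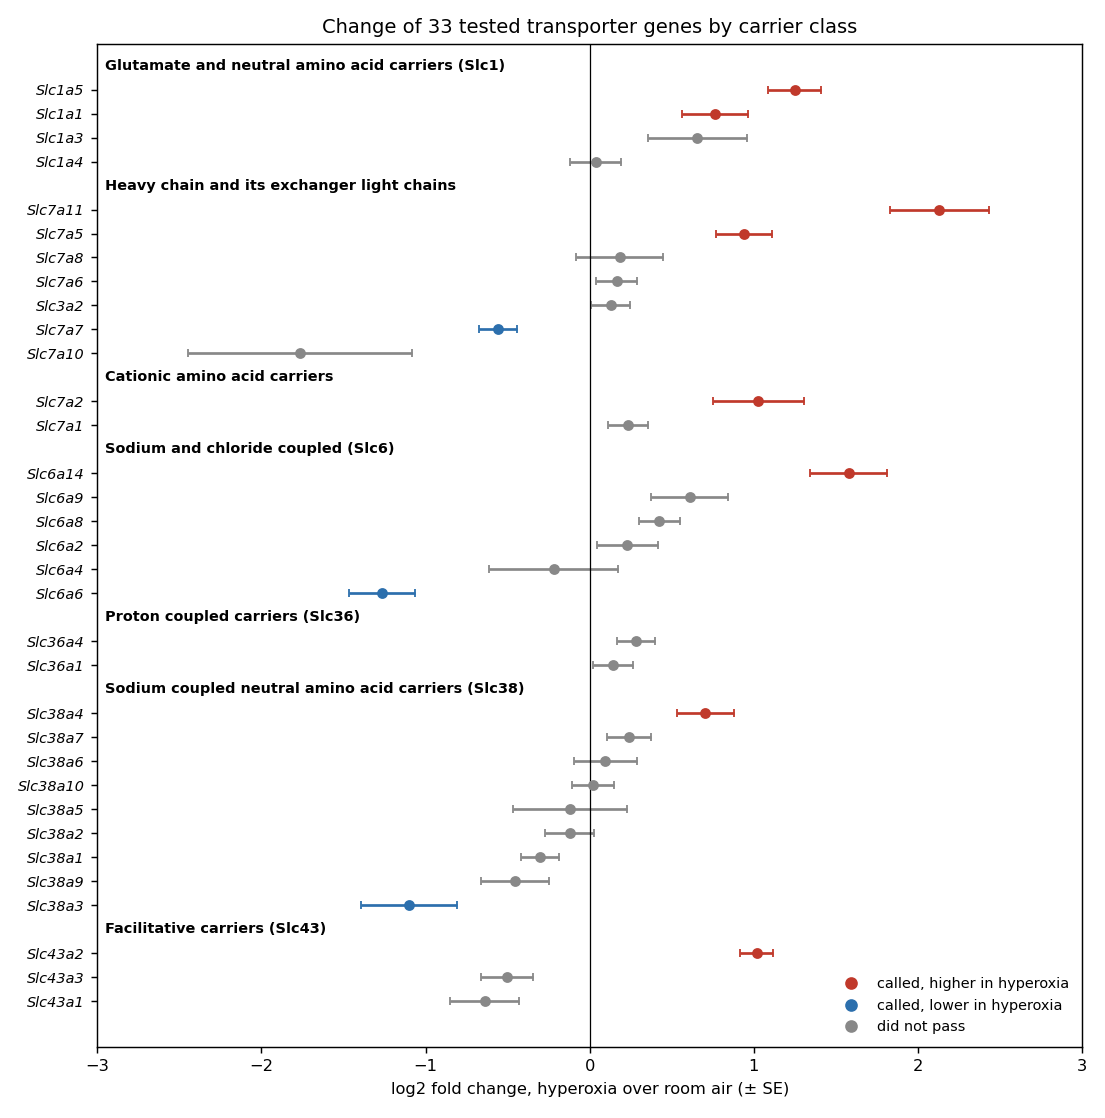
Log2 fold change of hyperoxia over room air for the 33 tested carrier genes (points, with bars of 1 SE), grouped by carrier class on the vertical axis. Red points are the 8 called higher in hyperoxia, blue points the 3 called lower and grey points the 22 that did not pass. Called genes of both directions lie in the light-chain, Slc6 and Slc38 classes.

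Promoter sequences are shown for the 3 genes of the set whose start region holds the motif TGATGNAA, the composite element that ATF4 and its partners bind. RefSeq sequences of 300 bases (250 before to 50 after an annotated start, build GRCm38.p6) were held for 24 of the 34 genes, some with several starts, and not for Slc1a5, Slc7a5, Slc7a2, Slc7a3, Slc6a2, Slc6a6, Slc6a8, Slc38a1, Slc38a3 and Slc43a3. The motif was searched on both strands and is in capitals. Positions count from the annotated start, with -1 the base before it.
Slc7a11 (chr3:50443564-50443863, minus strand): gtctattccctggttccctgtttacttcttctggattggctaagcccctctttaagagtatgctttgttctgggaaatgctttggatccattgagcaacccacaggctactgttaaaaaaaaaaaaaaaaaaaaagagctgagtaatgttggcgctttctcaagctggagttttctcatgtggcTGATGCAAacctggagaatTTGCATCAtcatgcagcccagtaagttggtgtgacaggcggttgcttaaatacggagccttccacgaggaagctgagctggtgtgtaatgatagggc
Slc7a7 (chr14:54417895-54418194, minus strand): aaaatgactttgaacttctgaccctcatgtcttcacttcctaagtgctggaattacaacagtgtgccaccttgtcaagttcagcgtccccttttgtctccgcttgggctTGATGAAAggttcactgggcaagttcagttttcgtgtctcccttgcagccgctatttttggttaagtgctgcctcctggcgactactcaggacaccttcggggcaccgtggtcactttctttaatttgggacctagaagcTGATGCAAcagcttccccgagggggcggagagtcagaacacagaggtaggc
Slc1a4 (chr11:20332664-20332963, minus strand): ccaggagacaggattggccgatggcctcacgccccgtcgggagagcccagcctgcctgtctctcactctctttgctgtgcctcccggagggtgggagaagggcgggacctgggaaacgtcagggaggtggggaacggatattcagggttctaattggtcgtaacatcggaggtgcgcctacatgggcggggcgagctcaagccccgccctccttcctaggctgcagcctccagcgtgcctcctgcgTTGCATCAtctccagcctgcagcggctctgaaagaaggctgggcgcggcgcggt
The Slc7a11 promoter holds the motif in both orientations, as TGATGCAA at -66 to -59 and as its reverse complement TTGCATCA at -47 to -40. Slc7a7 holds TGATGAAA at -141 to -134 and TGATGCAA at -1 to 7, the last of which also lies in the window of another of its annotated starts, and Slc1a4 holds TTGCATCA at -4 to 4. Over all 27025 genes in the table, 4.51% hold the motif in at least 1 start region. Of these 3 genes, Slc7a11 rose in hyperoxia, Slc7a7 fell and Slc1a4 did not pass (adjusted p = 0.914). The antioxidant response element TGACNNNGC, which NRF2 binds, was searched on both strands in the same windows; none of the 24 genes held both motifs. It lay in the windows of 6 genes (Slc43a1, Slc6a9, Slc7a1, Slc7a6, Slc36a1 and Slc38a2), none of which was called, and 14% of all genes hold it. A match is a description of letters in this window, not of binding.

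Levels of different genes were set against each other only per kb of exon, using exon lengths from the GENCODE M21 annotation. The highest was Slc43a3, a member of a family of amino acid carriers that itself moves purine nucleobases, at 62.4 ± 11.6 CPM per kb in hyperoxia and 88.6 ± 11.6 CPM per kb in room air (SD, n = 3 each). Slc3a2, the heavy chain shared by several exchangers, followed at 56.9 ± 3.92 CPM per kb in hyperoxia and 52.1 ± 5.18 CPM per kb in room air. Slc6a6 was the sixth in hyperoxia and the second in room air, at 31.4 ± 3.42 CPM per kb in hyperoxia and 75.5 ± 22.9 CPM per kb in room air. Slc1a5 was the third in hyperoxia and the seventh in room air, at 44.9 ± 6.24 CPM per kb in hyperoxia and 18.9 ± 4.00 CPM per kb in room air. Some neighbours in this order did not differ beyond their spread: in hyperoxia Slc43a3 and Slc3a2 lay closer together than the SD of Slc43a3, and Slc6a2, Slc6a6 and Slc38a2 closer than any of their SDs. In room air, Slc43a3 and Slc6a6 lay closer than the SD of Slc6a6. At the low end, Slc7a3 and Slc7a10 had the lowest mean levels over all libraries. Slc7a3, a cationic amino acid carrier gene, failed the filter with 1, 4 and 8 counts in hyperoxia 1 to 3, against 10, 12 and 18 counts in room air 1 to 3. Slc7a10, which carries small neutral amino acids, passed the filter through the room air libraries alone.

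**Figure D2:**
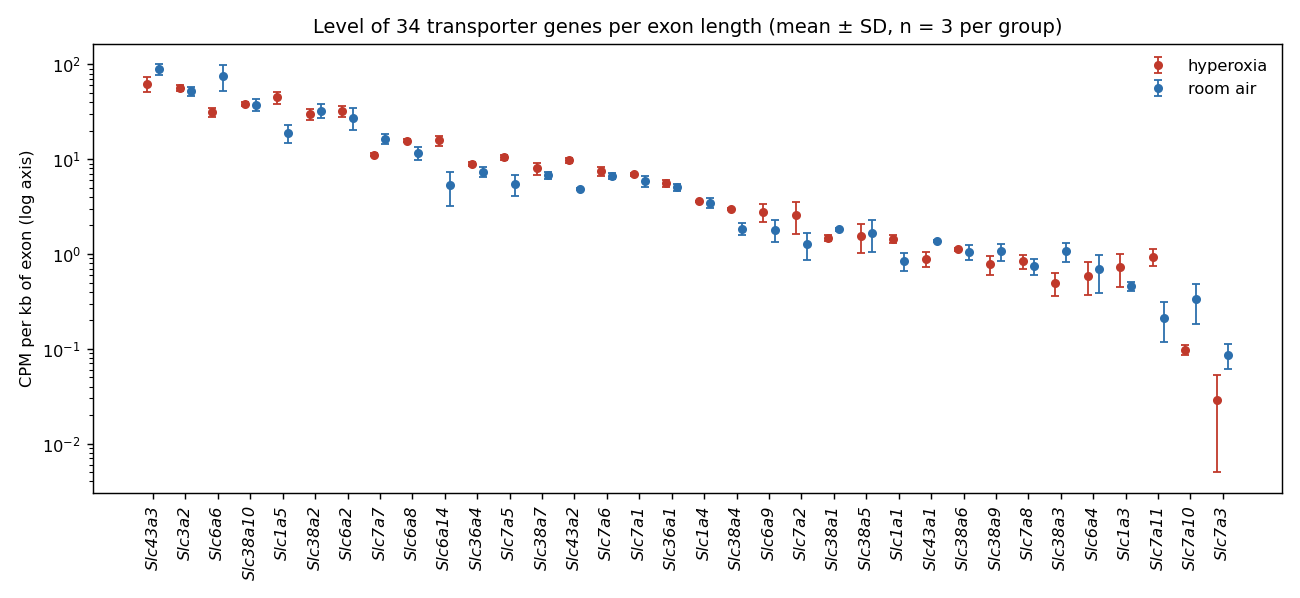
Mean level of the 34 carrier genes in CPM per kb of exon on a log axis, with SD over 3 libraries per group, hyperoxia in red and room air in blue. Genes run from the highest mean level (Slc43a3) to the lowest (Slc7a3). Slc6a6 stands lower in hyperoxia, and Slc1a5, Slc6a14 and Slc7a11 stand higher.

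Among the Slc1 carriers, 2 of 4 rose and none fell, against 6.77% and 4.41% of all genes tested. Slc1a5 encodes ASCT2, an exchanger of neutral amino acids that brings glutamine into cells. It held 168, 217 and 176 CPM in hyperoxia 1 to 3, against 64.8, 74.5 and 97.3 CPM in room air 1 to 3, so that every hyperoxia library was above every room air library (log2 fold change 1.25, SE 0.16, adjusted p = 0.00103). Slc1a1, the gene of a carrier of glutamate, aspartate and cysteine, held 10.8, 13.0 and 11.8 CPM in hyperoxia 1 to 3, against 6.12, 6.12 and 8.71 CPM in room air 1 to 3. The groups did not overlap and the gene rose (log2 fold change 0.76, SE 0.20, adjusted p = 0.0344), but 31.9% of its exon length is shared with an opposite-strand gene, and no source used here gives the strand setting of the counting. The call was lost without hyperoxia 1 (adjusted p = 0.0611), hyperoxia 2 (0.0792), hyperoxia 3 (0.103), room air 1 (0.110) or room air 2 (0.123), and adjusted p ran from 0.00533 to 0.123 over its 16 alternatives. Relative to the sum of the alveolar type 1 markers in the same library, scaled to 1000 CPM of the sum, Slc1a1 went the other way without overlap, at 1.68 to 1.95 in hyperoxia and 2.25 to 2.58 in room air, and the part of those genes in its rise was not tested. Slc1a3, a glutamate carrier gene of glia and other cells, ranged from 3.66 to 8.35 CPM in hyperoxia and from 3.57 to 4.42 CPM in room air and did not pass (log2 fold change 0.65, SE 0.30, adjusted p = 0.208). Slc1a4, which encodes the alanine, serine and cysteine exchanger ASCT1, had 14.1 ± 0.310 CPM in hyperoxia and 13.7 ± 1.67 CPM in room air (SD, n = 3 each) and a log2 fold change of 0.04 (95% limits -0.26 to 0.34).

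Such ratios to a marker sum, scaled in the same way below, are described with no test. The alveolar type 1 sum itself rose, so a gene that rose by less has a lower ratio to it in hyperoxia. Relative to the alveolar type 1 sum, Slc1a5 held 28.0 to 29.3 in hyperoxia and 27.2 to 28.8 in room air, which overlap. Relative to the pan-endothelial sum it held 10.2 to 17.7 in hyperoxia and 3.29 to 6.79 in room air. Within hyperoxia its order was replicate 2, 3, 1 from the highest, and within room air 3, 2, 1, which is the order of the alveolar type 1 sum in both groups. Slc1a1, whose ratio to that sum was lower in hyperoxia, shared this order, except that room air 1 and 2 were level at 6.12 CPM. The part of the alveolar type 1 genes in the rise of Slc1a5 was not tested. The rise stood without hyperoxia 2 and room air 3 together (log2 fold change 1.30, adjusted p = 0.000175, range 1.28e-18 to 0.00839 over 16 alternatives). That fit does not remove the difference in alveolar type 1 markers. Their sum was 5853 and 6016 CPM in hyperoxia 1 and 3, against 2380 and 2724 CPM in room air 1 and 2.

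Slc3a2 encodes the heavy chain 4F2hc, also known as CD98, which carries exchanger light chains of the Slc7 family to the cell surface. Its own level held 206, 185 and 212 CPM in hyperoxia 1 to 3, against 177, 205 and 170.4 CPM in room air 1 to 3, and the groups overlapped (log2 fold change 0.13, SE 0.12, adjusted p = 0.548). Of the 6 light-chain genes, 2 rose, 1 fell and 3 did not pass, against 6.77% and 4.41% of all genes tested that rose and fell. Slc7a11 encodes xCT, which exchanges glutamate for cystine, the source of cysteine for glutathione. It held 11.0, 16.1 and 12.1 CPM in hyperoxia 1 to 3, against 2.37, 2.07 and 4.49 CPM in room air 1 to 3, the largest rise of the set (log2 fold change 2.13, SE 0.30, adjusted p = 0.00180). The lowest hyperoxia library was above the highest room air library, and the fitted fold was 4.38. Its ratio to the alveolar type 1 sum was 1.88 to 2.08 in hyperoxia and 0.759 to 1.33 in room air, which did not overlap.

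Slc7a5, the gene of LAT1, the carrier of leucine and other large neutral amino acids, held 38.7, 41.2 and 36.5 CPM in hyperoxia 1 to 3, against 24.0, 14.7 and 21.9 CPM in room air 1 to 3. It rose in hyperoxia with no overlap between the groups (log2 fold change 0.94, SE 0.17, adjusted p = 0.00603). Divided by the alveolar type 1 sum it held 5.32 to 6.62 in hyperoxia and 5.38 to 10.1 in room air, which overlap, and the part of those genes in its rise was not tested. Slc7a7 encodes y+LAT1, which exports cationic amino acids such as arginine in exchange for neutral ones. It held 38.4, 36.4 and 36.1 CPM in hyperoxia 1 to 3, against 61.1, 53.7 and 48.5 CPM in room air 1 to 3 and fell (log2 fold change -0.56, SE 0.12, adjusted p = 0.0113). The fall was not called without hyperoxia 3 (adjusted p = 0.0501), with adjusted p of 0.000505 to 0.0501 over 16 alternatives. Its ratio to the pan-endothelial sum was 2.30 to 2.96 in hyperoxia and 2.77 to 3.39 in room air, which overlap. The 10 macrophage markers, of cells that also use this exchanger, summed to 197 to 272 CPM in hyperoxia and 136 to 227 CPM in room air, and the part of those cells was not tested. Slc7a6, the gene of the related y+LAT2, held 33.8, 38.5 and 30.5 CPM in hyperoxia 1 to 3, against 31.3, 32.4 and 28.0 CPM in room air 1 to 3, and the groups overlapped (log2 fold change 0.16, SE 0.13, adjusted p = 0.462). Slc7a8, which encodes the neutral amino acid exchanger LAT2, stayed between 3.24 and 4.87 CPM in all 6 libraries and did not pass (adjusted p = 0.719). Slc7a10 held 0.218, 0.222 and 0.178 CPM in hyperoxia 1 to 3, against 0.339, 0.867 and 0.917 CPM in room air 1 to 3, lower in every hyperoxia library, but did not pass (log2 fold change -1.76, SE 0.68, adjusted p = 0.131). It passed the filter only through the room air libraries, where it is high, and shares 17.9% of its exon length with an opposite-strand gene.

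The summed level of the 6 light chains differed between the groups by less than the SD, at 31.0 ± 1.76 CPM per kb in hyperoxia and 29.9 ± 2.51 CPM per kb in room air (SD, n = 3 each). The makeup of the sum differed. Slc7a5 made up 33.7, 33.9 and 33.7% in hyperoxia 1 to 3, against 19.8, 13.9 and 20.9% in room air 1 to 3. For Slc7a7 the share was 37.3, 33.5 and 37.2% in hyperoxia 1 to 3, against 56.3, 56.9 and 51.7% in room air 1 to 3. Slc7a7 was the most abundant light chain gene per kb in every room air library, while in hyperoxia the ratio of Slc7a5 to Slc7a7 per kb was 0.903 to 1.01, against 0.244 to 0.404 in room air. Slc7a6 held 23.9, 25.7 and 22.9% in hyperoxia 1 to 3, against 20.9, 24.9 and 21.6% in room air 1 to 3. For Slc7a11, the gene with the largest fold, the share was 2.54, 3.53 and 2.96% in hyperoxia 1 to 3, against 0.520, 0.521 and 1.14% in room air 1 to 3. These shares are a description with no test of their own, and they cannot tell whether the genes are active in the same cells.

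**Figure D3:**
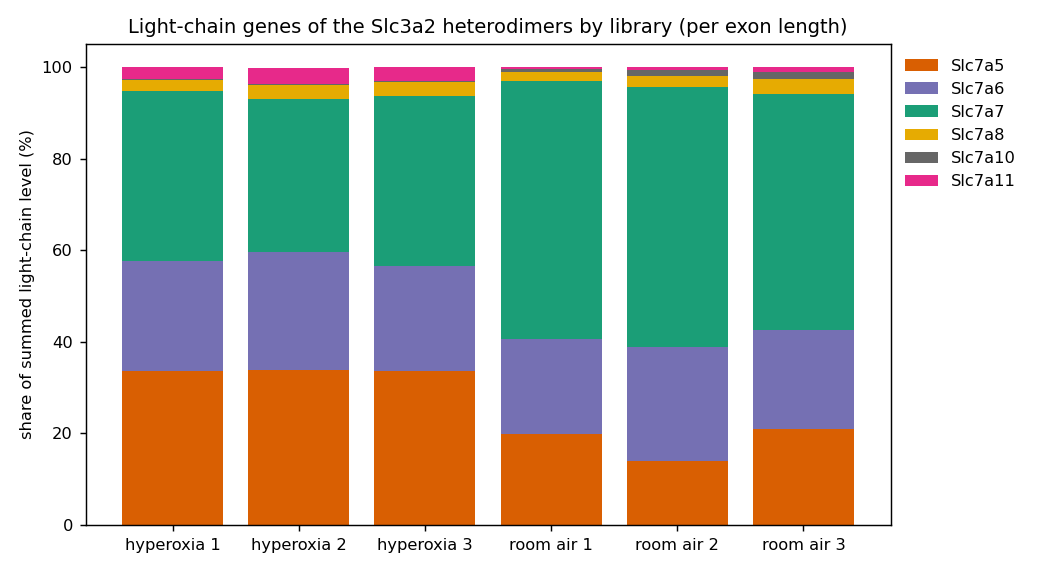
Share (%) of the summed level per kb of exon taken by each of the 6 light-chain genes that pair with Slc3a2, 1 bar per library, hyperoxia at the left. The Slc7a5 segment is 33.7% to 33.9% in the 3 hyperoxia libraries and 13.9% to 20.9% in room air, and the Slc7a7 segment is smaller in hyperoxia.

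The cationic amino acid carriers of the Slc7 family work without the heavy chain and take up arginine, lysine and ornithine. Slc7a1, the gene of CAT1, held 79.5, 77.1 and 83.2 CPM in hyperoxia 1 to 3, against 75.8, 70.8 and 57.3 CPM in room air 1 to 3; the groups did not overlap, but the gene did not pass (log2 fold change 0.23, SE 0.12, adjusted p = 0.259). Slc7a2, the gene of CAT2, held 18.1, 33.8 and 18.8 CPM in hyperoxia 1 to 3, against 10.7, 8.39 and 15.6 CPM in room air 1 to 3. It rose (log2 fold change 1.03, SE 0.28, adjusted p = 0.0387), with hyperoxia 2 well above the other 5 libraries. Without hyperoxia 2 the log2 fold change was 0.68, and the call was lost without hyperoxia 2 (adjusted p = 0.105), room air 1 (0.122) or room air 2 (0.146) (range over 16 alternatives 2.69e-07 to 0.146). In proportion to the alveolar type 1 sum Slc7a2 held 3.09 to 4.36 in hyperoxia and 3.08 to 4.62 in room air, which overlap, and the part of those genes was not tested.

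The Slc6 carriers use sodium and chloride gradients. Slc6a6 encodes the taurine carrier TauT; taurine is an abundant free amino acid that serves as an osmolyte. Its level was 286, 233 and 279 CPM in hyperoxia 1 to 3, against 623, 840.1 and 453 CPM in room air 1 to 3. The fall was the largest called in the set, with no overlap, and room air 2 was far above room air 3 (log2 fold change -1.27, SE 0.20, adjusted p = 0.00301). Pan-endothelial markers had a median log2 fold change of -0.28 in the same libraries, with 1 of 12 called lower. Relative to their sum Slc6a6 held 17.3 to 18.9 in hyperoxia and 31.6 to 43.3 in room air, so that the groups stayed apart. Of the general capillary markers, 2 named after their values were seen fell by more: Kit held 186, 99.8 and 169.8 CPM in hyperoxia 1 to 3, against 444, 541 and 412 CPM in room air 1 to 3 (log2 fold change -1.62, adjusted p = 0.00122), and Glp1r held 207, 122 and 204 CPM in hyperoxia 1 to 3, against 553, 614 and 410.0 CPM in room air 1 to 3 (-1.56, adjusted p = 0.00147). Both had the library order of Slc6a6 in each group. Aplnr, the other general capillary marker that was called, fell by less than Slc6a6 (log2 fold change -0.90, adjusted p = 0.0326). Its library order differed from that of Slc6a6 in both groups, at 489, 271 and 529 CPM in hyperoxia 1 to 3, against 906, 854 and 640 CPM in room air 1 to 3. Of the 8 general capillary markers 3 fell and 5 did not pass, with a list median of -0.39. The fitted change was upward for 2 of the 8, Lpl (0.42, adjusted p = 0.0673) and Plvap (0.15, adjusted p = 0.691). Every hyperoxia library was above every room air library for Lpl, while the groups overlapped for Plvap. The part of general capillary cells in the fall of Slc6a6 was not tested. The fall was called in each of 16 alternatives, with log2 fold changes of -1.46 to -1.02 and adjusted p of 5.91e-16 to 0.0135.

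Slc6a14 encodes ATB0,+, a concentrative carrier of neutral and cationic amino acids known from epithelia. It held 49.3, 62.0 and 51.2 CPM in hyperoxia 1 to 3, against 12.0, 16.6 and 25.8 CPM in room air 1 to 3 and rose with no overlap (log2 fold change 1.58, SE 0.23, adjusted p = 0.00215). Within each group its libraries ranked as the alveolar type 1 sum did, with hyperoxia 2 and room air 3 the highest. Its ratio to that sum was 8.01 to 8.52 in hyperoxia and 5.04 to 7.65 in room air, which did not overlap. The part of the alveolar type 1 genes in the rise of Slc6a14 was not tested. The gene is on the X chromosome, and Y-linked reads were near 0 in hyperoxia 1 and 3 only; with those reads as a covariate its log2 fold change was 1.78 (adjusted p = 0.00665, range 2.36e-24 to 0.0149 over 16 alternatives). Slc6a8, the X-linked creatine carrier gene, held 81.8, 78.7 and 84.9 CPM in hyperoxia 1 to 3, against 58.5, 71.7 and 52.7 CPM in room air 1 to 3. The groups did not overlap, and the gene just missed the threshold (log2 fold change 0.42, SE 0.12, adjusted p = 0.0524). It was called higher in 7 of 16 alternatives, among them DESeq2 (0.0291), limma-voom (0.0478) and the fit without room air 2 (0.0206), with adjusted p of 0.0147 to 0.172. With Y-linked reads as a covariate Slc6a8 was not called. Slc6a9, the gene of the glycine carrier GlyT1, held 11.5, 17.5 and 13.5 CPM in hyperoxia 1 to 3, against 6.56, 11.4 and 9.94 CPM in room air 1 to 3 and did not pass (log2 fold change 0.61, SE 0.23, adjusted p = 0.127); 30.2% of its exon length is shared with the opposite strand's genes. With Y-linked reads as a covariate Slc6a9 was called (adjusted p = 0.0448, range 0.0262 to 0.320).

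Neither amine carrier gene passed the test, and their levels differed. Slc6a2, the noradrenaline carrier gene, held 231, 175 and 201 CPM in hyperoxia 1 to 3, against 184, 211 and 123 CPM in room air 1 to 3, and the groups overlapped (log2 fold change 0.23, SE 0.19, adjusted p = 0.494). Slc6a4, the serotonin carrier gene, ranged from 1.65 to 3.68 CPM in hyperoxia and from 2.24 to 4.68 CPM in room air (log2 fold change -0.22, SE 0.39, adjusted p = 0.778). Per kb of exon, Slc6a2 exceeded Slc6a4 by 34.1 to 87.8 times in the hyperoxia libraries and by 18.9 to 67.8 times in the room air libraries. The ratio of Slc6a2 to the pan-endothelial sum was 12.8 to 14.2 in hyperoxia and 8.57 to 10.9 in room air, without overlap. That sum averaged 14830 CPM in hyperoxia and 17800 CPM in room air, which by itself raises the ratio in hyperoxia. A change of Slc6a2 per endothelial cell was not tested. Of 14 genes for making, storing, breaking down or otherwise taking up monoamines, 8 were tested and none was called by edgeR. DESeq2 called 1 higher and 1 lower, as did edgeR without room air 3, and at an unadjusted p below 0.05 edgeR had 3. These counts are given without the shares of all genes at the same settings, and are no result about the list. The most abundant genes of the list were Aldh2, an aldehyde dehydrogenase gene (log2 fold change 0.42, adjusted p = 0.0877), and Maoa, the monoamine oxidase A gene (-0.19, adjusted p = 0.471).

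**Figure D4:**
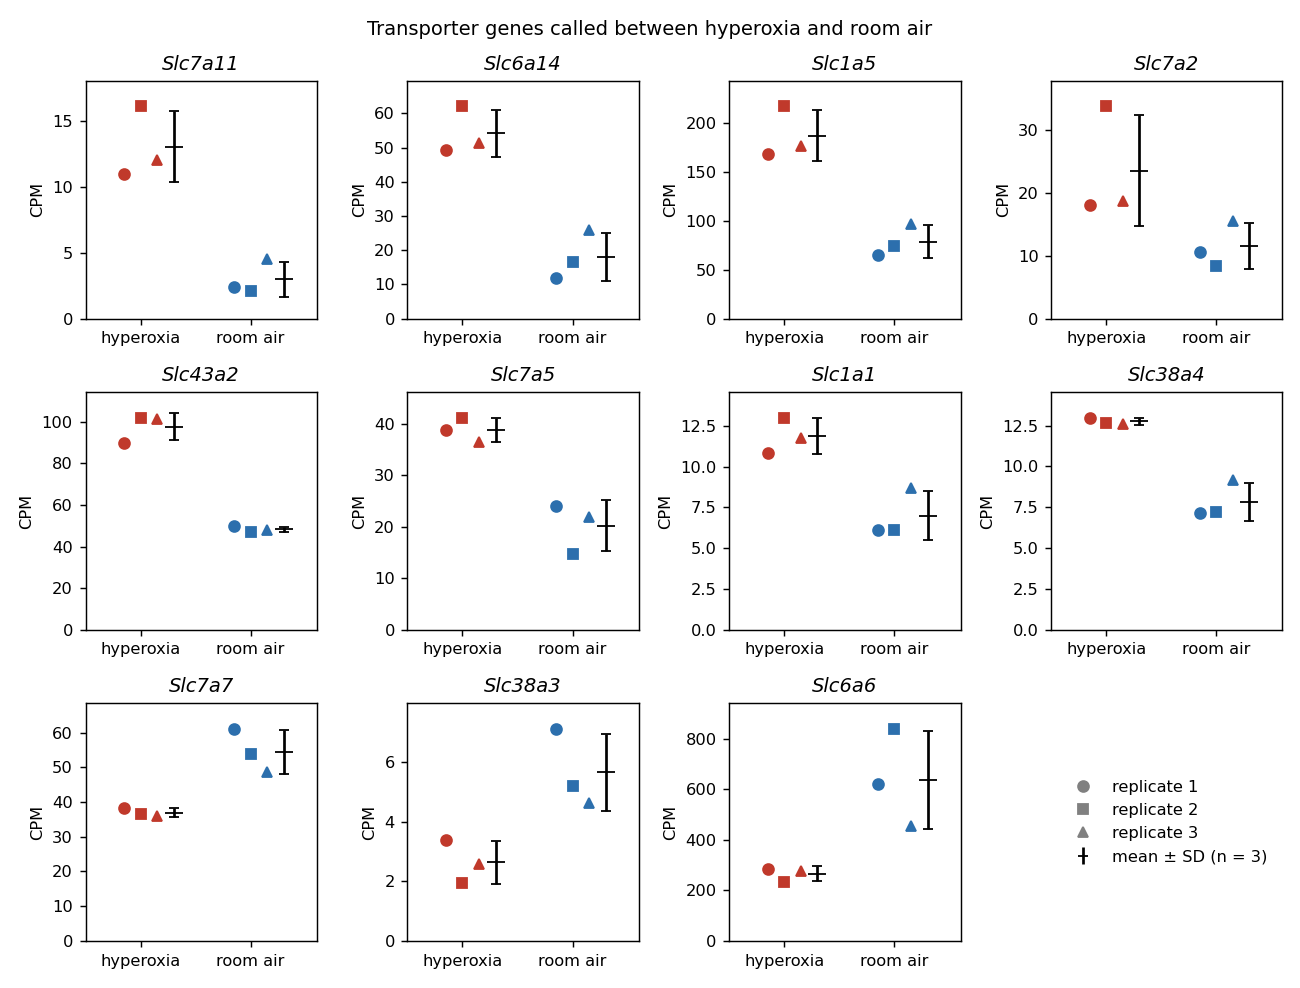
CPM of the 11 called carrier genes in each library, hyperoxia (red) left of room air (blue), with replicate number as the symbol and mean ± SD (n = 3) in black. The vertical axis of each panel starts at 0, and the groups do not overlap in any of the 11 panels. Hyperoxia 2 is the highest hyperoxia library for 7 of the 8 genes that rose.

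Slc38 carriers move glutamine and other small neutral amino acids with sodium. Of the 9, 1 rose, 1 fell and 7 did not pass, against 6.77% and 4.41% of all genes tested that rose and fell. With 9 genes, 1 in each direction is not a result about the class. Slc38a4, the gene of SNAT4, held 13.0, 12.7 and 12.6 CPM in hyperoxia 1 to 3, against 7.14, 7.19 and 9.15 CPM in room air 1 to 3 and rose (log2 fold change 0.70, SE 0.17, adjusted p = 0.0266). The call was lost without hyperoxia 1 (adjusted p = 0.0801), hyperoxia 3 (0.0886), room air 1 (0.0848) or room air 2 (0.0952) and with Y-linked reads as a covariate (0.0654), in a range of 0.00288 to 0.0952 over 16 alternatives. Its ratio to the alveolar type 1 sum was lower in hyperoxia without overlap, at 1.64 to 2.22 in hyperoxia and 2.64 to 2.999 in room air, and the part of those genes in its rise was not tested. Slc38a3, the gene of the glutamine carrier SNAT3, held 3.39, 1.95 and 2.56 CPM in hyperoxia 1 to 3, against 7.11, 5.20 and 4.63 CPM in room air 1 to 3 and fell (log2 fold change -1.10, SE 0.29, adjusted p = 0.0365). Its call was lost without hyperoxia 2 (adjusted p = 0.0814), hyperoxia 3 (0.108), room air 1 (0.129) or room air 2 (0.0861), in a range of 0.00428 to 0.129.

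Slc38a2, the gene of SNAT2, which cells induce when starved of amino acids, ranked below Slc38a10 and above the other members of the family per kb of exon. It held 224, 286 and 281 CPM in hyperoxia 1 to 3, against 238, 333 and 289 CPM in room air 1 to 3, and the groups overlapped (log2 fold change -0.12, SE 0.15, adjusted p = 0.671). The ratio of Slc1a5 to Slc38a2 per kb was 1.33 to 1.61 in hyperoxia and 0.474 to 0.714 in room air, so Slc1a5 was above Slc38a2 in every hyperoxia library and below it in every room air library. Slc38a10 held 254, 230.2 and 249.6 CPM in hyperoxia 1 to 3, against 268, 254 and 203 CPM in room air 1 to 3 (log2 fold change 0.02, 95% limits -0.23 to 0.27). Slc38a1, the gene of SNAT1, held 23.6, 25.4 and 27.2 CPM in hyperoxia 1 to 3, against 31.7, 30.3 and 31.9 CPM in room air 1 to 3; it was lower in every hyperoxia library but did not pass (log2 fold change -0.30, SE 0.12, adjusted p = 0.128). Slc38a7, a gene of a lysosomal glutamine carrier, held 38.4, 30.0 and 30.9 CPM in hyperoxia 1 to 3, against 28.7, 30.0 and 25.4 CPM in room air 1 to 3 and overlapped between groups (log2 fold change 0.24, SE 0.13, adjusted p = 0.305). Slc38a9, the lysosomal arginine sensor of the growth kinase mTORC1, ranged from 10.6 to 16.3 CPM in hyperoxia and from 13.7 to 20.4 CPM in room air (adjusted p = 0.198). Slc38a5, the gene of the glutamine carrier SNAT5, ranged from 2.72 to 4.79 CPM in hyperoxia and from 2.52 to 5.29 CPM in room air (adjusted p = 0.871). Slc38a6 ranged from 8.51 to 9.10 CPM in hyperoxia and from 6.99 to 9.80 CPM in room air (adjusted p = 0.810).

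The proton-coupled carriers of the Slc36 family sit largely on lysosomes and endosomes. Slc36a4 held 55.5, 60.4 and 60.4 CPM in hyperoxia 1 to 3, against 46.7, 54.5 and 43.7 CPM in room air 1 to 3, without overlap, but did not pass (log2 fold change 0.28, SE 0.11, adjusted p = 0.148). Slc36a1 held 30.4, 29.5 and 33.9 CPM in hyperoxia 1 to 3, against 27.7, 31.2 and 26.3 CPM in room air 1 to 3, with overlap (log2 fold change 0.14, SE 0.12, adjusted p = 0.527). Of 22 genes of amino acid sensing by mTORC1, 3 rose, against 6.77% of all genes tested, and 19 did not pass. The stress-induced inhibitor Sesn2 held 54.0, 86.3 and 66.0 CPM in hyperoxia 1 to 3, against 15.8, 15.9 and 13.7 CPM in room air 1 to 3 (log2 fold change 2.18, adjusted p = 9.62e-05). Rragd, a Rag GTPase gene, held 12.9, 22.3 and 16.3 CPM in hyperoxia 1 to 3, against 3.68, 3.37 and 3.40 CPM in room air 1 to 3 (log2 fold change 2.30, adjusted p = 0.000271). Castor1, the cytosolic arginine sensor gene, rose as well (log2 fold change 0.55, adjusted p = 0.0322). The median of the list was 0.20.

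Slc43 carriers work without an ion gradient, and 1 of the 3 rose, against 6.77% of all genes tested, while the other members did not pass. Slc43a2, the gene of LAT4, which carries branched-chain amino acids, phenylalanine and methionine, held 90.0, 102 and 101 CPM in hyperoxia 1 to 3, against 49.7, 47.1 and 48.1 CPM in room air 1 to 3. Libraries within each group lay close together and the groups far apart (log2 fold change 1.02, SE 0.10, adjusted p = 0.000288), which gave this gene the smallest adjusted p of the set. Relative to the alveolar type 1 sum it held 13.2 to 16.8 in hyperoxia and 14.2 to 20.9 in room air, which overlap and whose part in the rise was not tested, and relative to the pan-endothelial sum 5.45 to 8.30 in hyperoxia and 2.43 to 3.35 in room air. Slc43a1, the gene of the related LAT3, held 4.73, 4.35 and 6.07 CPM in hyperoxia 1 to 3, against 7.98, 7.68 and 7.92 CPM in room air 1 to 3; it was lower in every hyperoxia library but did not pass (log2 fold change -0.64, SE 0.21, adjusted p = 0.0785). Slc43a3 held 329, 225 and 281 CPM in hyperoxia 1 to 3, against 422, 428 and 336 CPM in room air 1 to 3, without overlap, and did not pass (log2 fold change -0.51, SE 0.16, adjusted p = 0.0669). It was called lower in 8 of 16 alternatives, among them DESeq2 (0.0107) and the fits without hyperoxia 1 (0.0493) or room air 3 (0.0269), with adjusted p of 0.00539 to 0.199. The ratio of Slc43a3 to the pan-endothelial sum was 17.9 to 19.9 in hyperoxia and 21.4 to 23.4 in room air, which did not overlap.

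Libraries differed within groups in a shared way. Hyperoxia 2 was the highest hyperoxia library for 7 of the 8 genes that rose, and room air 3 the highest room air library for 6 of the 8. Among the 3 that fell, room air 3 was the lowest room air library for all 3 and hyperoxia 2 the lowest hyperoxia library for 2. These were also the libraries with the highest alveolar type 1 sum and the lowest pan-endothelial, general capillary and aerocyte sums of their groups. Both were highest of their groups in other non-endothelial lists too. Alveolar type 2 markers summed to 17767 CPM in hyperoxia 2 and 20945 CPM in room air 3. The same held for airway, fibroblast, smooth muscle, macrophage and mast cell markers. The part of these cells in the members' values was not tested. Without both of these libraries 8 members rose and 4 fell: the 11 called genes remained called, and Slc43a3 fell too. The share of all genes called in that fit is not given here, so the count is no result about the members as a set. The alveolar type 1 sum still differed between the groups in the libraries left. As ratios to the alveolar type 1 sum, 2 of the 11 stayed higher without overlap (Slc7a11 and Slc6a14), 4 overlapped (Slc1a5, Slc7a5, Slc7a2 and Slc43a2) and 5 were lower: Slc6a6, Slc7a7 and Slc38a3, and also Slc1a1 and Slc38a4, which had risen in CPM. As ratios to the pan-endothelial sum, 8 were higher, 2 were lower (Slc6a6 and Slc38a3) and 1 overlapped (Slc7a7). The ratios were chosen after seeing the data and were not computed for all genes. The alveolar type 1 sum itself averaged 6538 CPM in hyperoxia and 2827 CPM in room air, so a gene of unchanged CPM has a lower ratio in hyperoxia. The pan-endothelial sum averaged 14830 CPM in hyperoxia and 17800 CPM in room air, which moves ratios the other way.

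**Figure D5:**
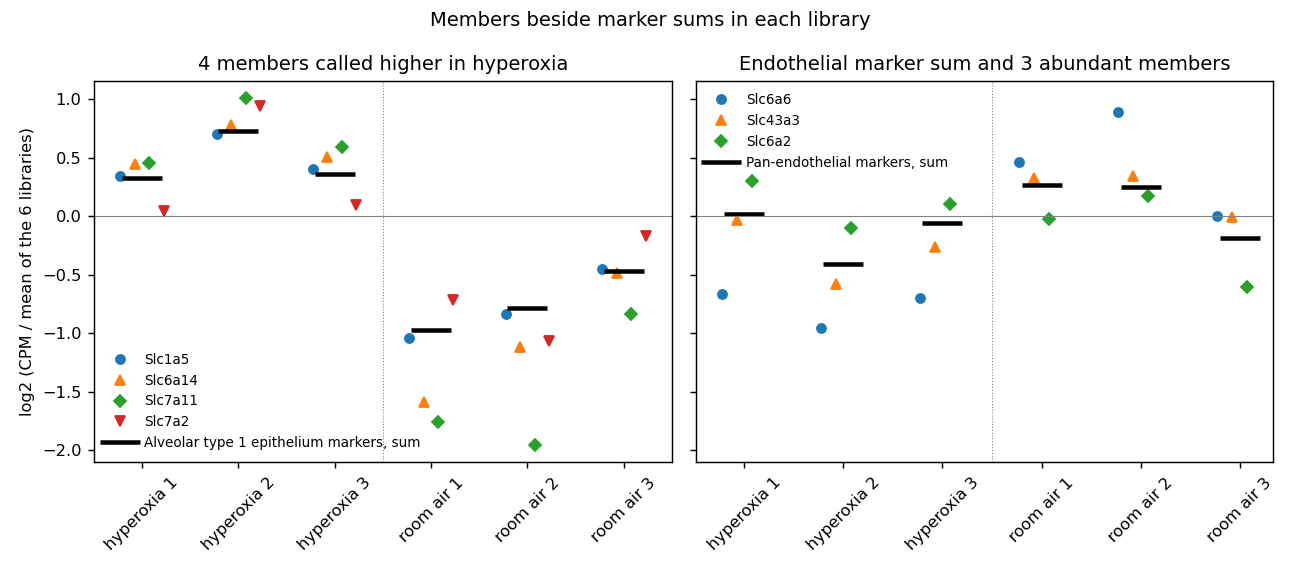
Log2 of CPM over the mean of the 6 libraries for members chosen after their values were seen, with the summed markers of alveolar type 1 epithelium (left) or endothelium (right) as black bars. Slc1a5 lies close to the alveolar type 1 sum in every library, while Slc6a6 lies below the pan-endothelial sum in the 3 hyperoxia libraries and above it in the 3 room air libraries.

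Genes that act with these carriers were read from the same test. Of 22 genes of amino acid synthesis and stress that ATF4 regulates, 6 rose, against 6.77% of all genes tested, none fell and 16 did not pass (median log2 fold change 0.52). Nupr1, a stress-induced chromatin protein gene, held 45.2, 75.1 and 59.5 CPM in hyperoxia 1 to 3, against 14.0, 10.3 and 19.9 CPM in room air 1 to 3 (log2 fold change 2.02, adjusted p = 0.000726). Atf5, a transcription factor gene related to Atf4, held 32.6, 50.9 and 37.2 CPM in hyperoxia 1 to 3, against 18.7, 16.3 and 17.6 CPM in room air 1 to 3 (log2 fold change 1.20, adjusted p = 0.00155). The pseudokinase gene Trib3 (1.09, adjusted p = 0.00393) and the lipoprotein receptor gene Vldlr (1.09, adjusted p = 0.000995) rose by similar log2 fold changes. Asns, the asparagine synthetase gene, rose too (1.04, adjusted p = 0.00401; named after its value was seen). Atf4 itself did not pass, with 245, 240.4 and 234 CPM in hyperoxia 1 to 3, against 183, 259 and 239.6 CPM in room air 1 to 3 (log2 fold change 0.08, adjusted p = 0.771; named likewise).

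Of 17 NRF2-regulated genes of glutathione and redox, 11 rose, against the same 6.77%, none fell and 6 did not pass (median 0.75). Gpx2, a glutathione peroxidase gene (2.58, adjusted p = 0.00165), Nqo1, a quinone reductase gene (2.51, adjusted p = 9.62e-05), Osgin1 (2.37, adjusted p = 9.62e-05) and Srxn1, the sulfiredoxin gene (2.09, adjusted p = 9.62e-05), had the largest log2 fold changes. Among the enzymes that build glutathione from the cysteine brought in by xCT, 2 genes were named after their values were seen. Gclc, the catalytic subunit of the first step of glutathione synthesis, held 97.7, 159 and 128 CPM in hyperoxia 1 to 3, against 49.4, 47.8 and 63.1 CPM in room air 1 to 3 (log2 fold change 1.26, SE 0.18, adjusted p = 0.00155), and Gss, the gene of the second step, rose as well (0.75, adjusted p = 0.00366). Gclm, the gene of the other subunit of the first step, was higher in every hyperoxia library but did not pass (0.31, adjusted p = 0.0734). Of 8 tested genes of glutathione use and cystine handling, 2 rose, again against 6.77%: Aifm2, the ferroptosis suppressor gene (1.01, adjusted p = 0.00460), and Gpx4, the lipid peroxide reductase gene (0.69, adjusted p = 0.00932). The part of the alveolar type 1 genes, which had a median log2 fold change of 1.24, in these lists was not tested.

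Of 20 cytosolic aminoacyl-tRNA synthetase genes, which charge tRNAs with the imported amino acids, 1 rose, a share near the 6.77% of all genes tested, and 19 did not pass (median 0.07). That gene, the seryl-tRNA synthetase gene Sars, held 152, 183 and 151 CPM in hyperoxia 1 to 3, against 127, 108 and 109.6 CPM in room air 1 to 3 (log2 fold change 0.49, adjusted p = 0.0243). The count was 0 without hyperoxia 2, hyperoxia 3 or room air 2, and 2 without room air 1. Of 10 tested genes of nitric oxide and arginine use, 2 rose and 1 fell, against 6.77% and 4.41% of all genes. Asl, the argininosuccinate lyase gene (0.53, adjusted p = 0.0196), and Odc1, the ornithine decarboxylase gene of polyamine synthesis (0.54, adjusted p = 0.0223), rose, and Azin1, which protects ornithine decarboxylase from degradation, fell (-0.57, adjusted p = 0.0108). The 2 became 0 without hyperoxia 2, hyperoxia 3 or room air 2 and 1 without hyperoxia 1 or room air 3; the count that fell became 2 without room air 3. Of 28 other plasma membrane carriers of amino acids and amines, 8 were tested and none was called by edgeR or DESeq2. By edgeR 1 had an unadjusted p below 0.05, a count given without the share of all genes at that threshold. The most abundant of these carriers were Slc7a4 (log2 fold change 0.51, adjusted p = 0.234) and Slc16a10, the gene of an aromatic amino acid carrier (-0.58, adjusted p = 0.302).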

How the data were processed

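The authors deposited raw counts for 56941 Ensembl gene IDs in 6 libraries. The GRCm39 build, HISAT2 2.2.1, Subread 2.0.6, featureCounts, and DESeq2 are named per the submitters' processing notes, which give no roles. The annotation, strandedness and multimapping choices were not given in the sources used here. Titles gave each sample's group and replicate number. Symbols were matched by ID for 51948 IDs, and a symbol with several IDs was taken by the lowest ID. Exon lengths and overlaps came from GENCODE M21, which is on GRCm38.

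All fits were made in R 4.3.3 (edgeR 4.0.16; for alternatives, limma 3.58.1 and DESeq2 1.42.0). The filterByExpr filter, with minima of 10 counts per library and 15 counts in total, left 17072 genes. TMM factors ran from 0.975 to 1.04. Hyperoxia was set against room air by edgeR's quasi-likelihood test with robust fitting and no covariate. Each standard error was obtained by dividing the size of the log2 fold change by the root of its F statistic, and 95% limits follow from it; both are approximate. No 2 libraries of a group were duplicates: the chi-square of their counts was 15.2 or more times its degrees of freedom.

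All 34 members are accounted for. Members that were called, did not overlap between groups or averaged at least 20 CPM are given by library. Of each companion list up to 4 called genes are named, or the 2 most abundant. Members, lists and tests were chosen with earlier results of these data known. Alternatives were other scalings, filters, tests, replicate number as a block, Y-linked reads as a covariate and libraries left out.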

Additional observations from a re-analysis of the deposited data

How the results depend on the processing

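Of the 11 called members, 6 (Slc1a5, Slc7a5, Slc7a11, Slc6a14, Slc6a6 and Slc43a2) were called in the same direction in each of 16 alternatives, and 5 (Slc1a1, Slc7a7, Slc7a2, Slc38a3 and Slc38a4) lost the call in at least 1. No called member changed sign. Members that rose numbered 8, with 5 to 8 when a library was left out in turn 5 with replicate number as a block, 10 with no filter on low counts, and 9 by DESeq2, by limma-voom, with upper-quartile scaling and with the filter at 1 CPM; Slc6a8 was gained in these last 5 and Slc6a9 also with no filter. Members that fell numbered 3, with 1 to 4 when a library was left out and 5 by DESeq2. All genes that rose numbered 1156 (681 to 1095 with a library left out). All genes that fell numbered 753, with 376 to 749 when a library was left out, 1243 with no filter on low counts, 1242 by DESeq2 and 1227 with Y-linked reads as a covariate. The cause of these shifts was not tested. Deviations of same-numbered libraries from their group means correlated at 0.112, -0.0389 and -0.0899, so the numbers were not taken as pairs; with the block Slc1a1 (0.0592), Slc7a2 (0.0813) and Slc38a4 (0.0579) missed an adjusted p of 0.05. Slc1a1 and Slc7a2 also missed it with library size only (0.0523 and 0.0568). With 3 libraries per group an exact two-sided permutation test of 1 value cannot go below p = 0.1. Depth limits Slc7a3 (at most 18 counts in a library) and Slc7a10 (at most 0.917 CPM).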
